A study of Mus musculus with 20 samples.

Results

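Ccl11, Ccl2, Cxcl12, Saa3, Lcn2, Icam1 and Vcam1 encode 3 chemokines, 2 acute phase proteins and 2 adhesion molecules, and their messenger RNA was followed here in the fetal mouse lung. The 7 genes were selected on their measured values in the same arrays, mainly on the difference between mutants and controls at E18.5 (E counts embryonic days). They are 7 of the 12393 genes with a probe set of their own on the array and are measured by 10 of its 22690 probe sets. Each array held the RNA of 1 left lung lobe from 1 C57Bl6 embryo, and there were 20 arrays in 4 groups of 5 animals. The controls at E16.5 and at E18.5 had the genotype GR flox, that is, a floxed gene for the glucocorticoid receptor (GR) that their mesenchymal cells still express. The mutants at E16.5 and at E18.5 had the genotype GRCol1-Cre, in which Cre is expressed from a bacterial artificial chromosome that carries the collagen type (I)-alpha-2 locus. GR is lost in these mutants where that locus is active, in mesenchymal cells, and the epithelium and endothelium are not targeted. The embryos were taken by Caesarean section, and the labels give no treatment.

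Chemokines are small secreted proteins that guide cells along a gradient by binding G protein-coupled receptors. Ccl11 (eotaxin) recruits eosinophils through Ccr3, Ccl2 recruits monocytes through Ccr2, and Cxcl12 guides blood progenitors, endothelial cells and lymphocytes through Cxcr4. Saa3, a serum amyloid A made outside the liver, and Lcn2 (lipocalin 2), which withholds iron from bacteria by binding their siderophores, belong to the acute phase response. Icam1 and Vcam1 are immunoglobulin-type adhesion molecules that leukocytes hold on to through integrins. In the lung, Icam1 is also abundant on alveolar type I cells and Vcam1 on fibroblasts. Many genes of this kind are induced through NF-kappaB, C/EBP and STAT3, and glucocorticoids acting on GR are known to repress many inflammatory genes and to induce some acute phase genes.

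Saa3, Lcn2 and Icam1 were the members with higher values at E18.5 than at E16.5 in controls and with lower values in mutants than in controls at E18.5, so the DNA before their start sites is shown. The sequences are RefSeq's, in build GRCm38.p6, which has a promoter entry for 4 of the 7 members (Cxcl12 is the other). Each is the 250 bases before the start site, 5′ to 3′ on the gene's strand: Lcn2 at chr2:32387740-32387989 on the minus strand, Saa3 at chr7:46715677-46715926 on the minus strand, and Icam1 at chr9:21015690-21015939 on the plus strand. Capitals mark a match to one of the motifs named after the sequences.
Lcn2: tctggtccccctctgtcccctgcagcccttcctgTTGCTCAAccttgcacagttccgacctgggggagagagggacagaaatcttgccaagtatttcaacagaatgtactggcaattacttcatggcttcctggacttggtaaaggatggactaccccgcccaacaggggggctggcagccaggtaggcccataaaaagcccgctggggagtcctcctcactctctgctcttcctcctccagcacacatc
Saa3: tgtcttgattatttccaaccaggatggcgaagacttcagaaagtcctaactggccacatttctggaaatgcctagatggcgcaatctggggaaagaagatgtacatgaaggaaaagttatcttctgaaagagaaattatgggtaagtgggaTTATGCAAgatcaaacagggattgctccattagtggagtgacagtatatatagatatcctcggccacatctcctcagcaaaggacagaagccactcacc
Icam1: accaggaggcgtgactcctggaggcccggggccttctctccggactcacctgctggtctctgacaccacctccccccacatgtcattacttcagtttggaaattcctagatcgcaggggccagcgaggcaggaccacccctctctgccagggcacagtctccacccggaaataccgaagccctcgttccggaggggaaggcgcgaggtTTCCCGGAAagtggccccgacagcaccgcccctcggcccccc

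The motifs were searched on both strands of the full 300-base entries, which run 50 bases past the start site. TTGCNNAA, a C/EBP motif, was in 10.8% of the 32851 promoters of that length. Lcn2 held it as TTGCTCAA at -216 to -209, and Saa3 held it on the other strand, read on the gene's strand as TTATGCAA at -99 to -92. TTCNNNGAA, a STAT motif, was in 8.30% of promoters, and Icam1 held it as TTCCCGGAA at -42 to -34. TATAAA, the TATA box, was in 13.6% of promoters, and Icam1 held it at +14 to +19, past the stretch shown. The NF-kappaB consensus (8.46% of promoters), the AP-1 motif TGANTCA (7.81%) and the GR motif AGAACA (19.0%) had no match in the entries of these 3 genes, and Cxcl12 matched none of the 6 motifs. The NF-kappaB consensus was searched only in a strict form that begins with GGG and ends with CC, so sites with another start or end were not counted. The Icam1 stretch shown holds TGGAAATTCC, which differs from that form in its first base. The Lcn2 stretch holds GGGGAGTCCT, which differs in its last base. Near matches were not searched as such. A match or its absence describes the letters of this window and says nothing of the factor.

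Values are log2 intensities as deposited, and one below 4 is called dim here because it lies near the floor of the array. Within each group the arrays correlated at 0.988 to 0.998 over genes. Nr3c1, the gene for GR, averaged 8.78 ± 0.219 (SD, n = 5) in the controls of E16.5 against 7.07 ± 0.447 in the mutants, and 9.42 ± 0.224 in the controls of E18.5 against 7.80 ± 0.189 in the mutants. The E16.5 difference was -1.72 (SE 0.172, adjusted p = 1.66e-05, limma) and the E18.5 difference -1.62 (SE 0.172, adjusted p = 1.62e-06), with no overlap at either stage. E18.5 control replicate 3 stood apart from the other controls of its group, and by Xist and Y-linked genes 1 of 5 E16.5 controls, 5 of 5 E16.5 mutants, 3 of 5 E18.5 controls and 2 of 5 E18.5 mutants were female.

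At E18.5 the members went both ways. Ccl11, Ccl2 and Vcam1 were higher in all 5 mutants than in all 5 controls, Saa3, Lcn2 and Icam1 were lower in all 5, and the values of Cxcl12 overlapped. Of all 8068 genes tested, 17.4% had no overlap in that comparison, but the members were chosen on it, so their 6 of 7 is a description. The median of the 7 differences was 0.39, beside 0.03 over all genes tested. In whole lobes, fewer cells of a type and less RNA per cell cannot be told apart.

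**Figure D1:**
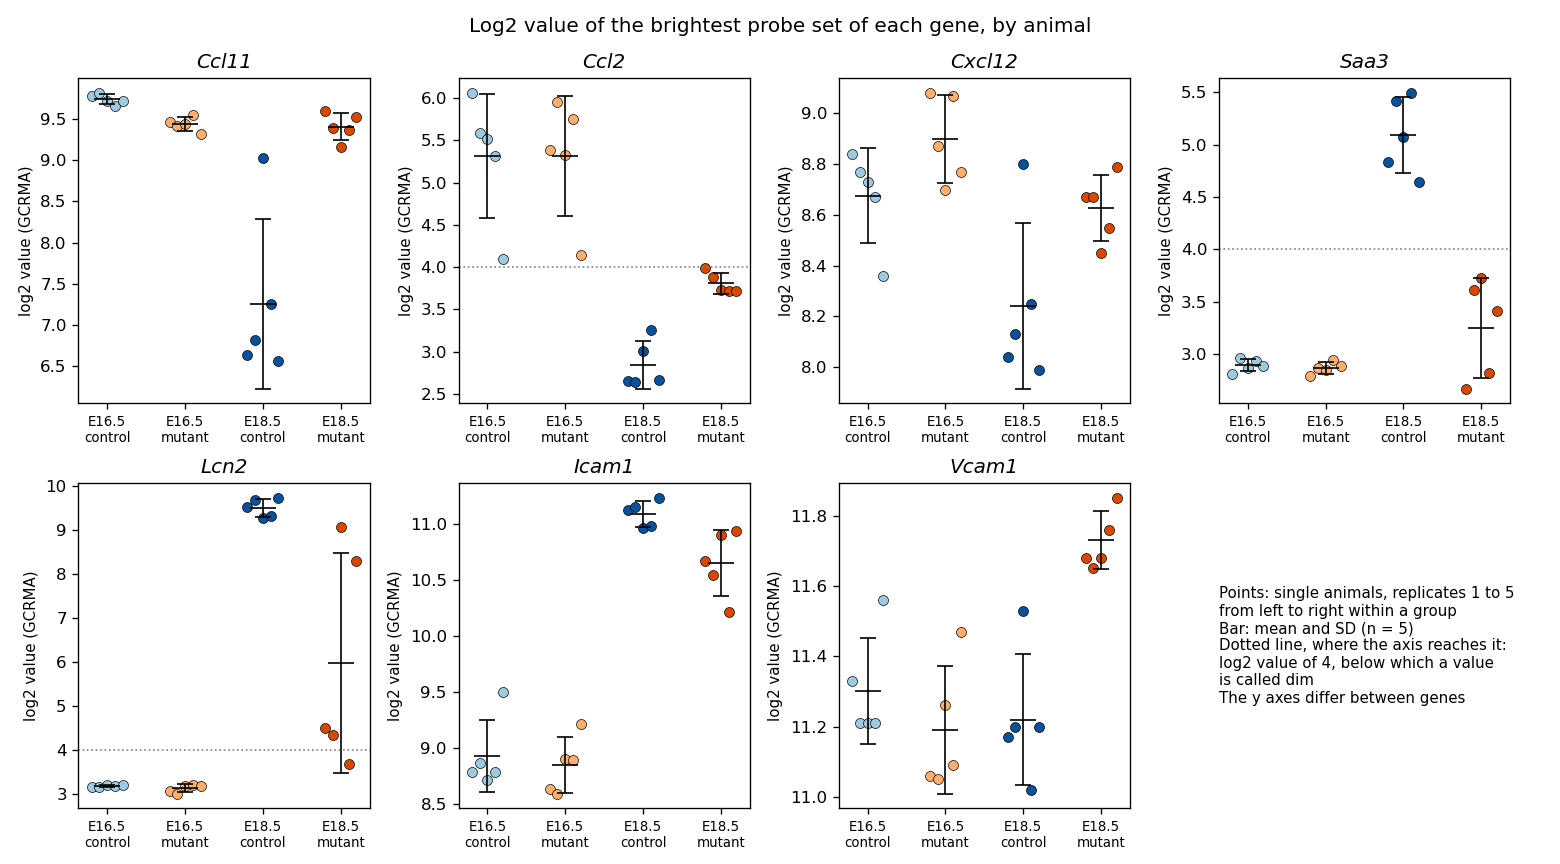
Log2 value (y axis, different for each gene) of the brightest probe set of each of the 7 genes in the 4 groups (x axis). Points are single animals, bars are the mean and SD of 5. Ccl11 stays above 9 in every group but the E18.5 controls, where 4 of 5 animals lie at 6.56 to 7.26, and Lcn2 spans 3.69 to 9.07 among the E18.5 mutants.

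Ccl11, the eosinophil attractant, had the largest positive difference among the 7 genes at E18.5. It read 6.64, 6.82, 9.03, 7.26 and 6.56 in E18.5 controls 1 to 5. It read 9.60, 9.39, 9.16, 9.36 and 9.52 in the E18.5 mutants. All mutants lay above all controls, and control 3 lay within 0.2 of the lowest mutant while the other 4 controls were more than 1.5 below any mutant. The difference was 2.15 (SE 0.307), or 4.43-fold, and 2.59 without control 3. The E16.5 values were high in both genotypes: 9.77, 9.81, 9.72, 9.65 and 9.72 in controls, and 9.46, 9.41, 9.44, 9.55 and 9.32 in mutants. From E16.5 to E18.5 Ccl11 was thus lower by 2.47 in controls (difference -2.47, SE 0.307) and nearly level in mutants (-0.03, SE 0.307). Its groups were ordered E18.5 controls, E18.5 mutants, E16.5 mutants and E16.5 controls, and the middle pair overlapped.

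Ccl2, the monocyte attractant, was a low-level gene whose E18.5 values were all dim. They were 2.65, 2.64, 3.01, 3.26 and 2.66 in controls and 3.99, 3.88, 3.73, 3.72 and 3.72 in mutants. The mutants were higher without overlap, by 0.96 (SE 0.312), but no array of either group reached 4, so no fold is given. At E16.5 it read 6.06, 5.59, 5.52, 5.32 and 4.10 in controls and 5.39, 5.96, 5.33, 5.76 and 4.14 in mutants. Replicate 5 was the lowest of each E16.5 group, and the groups overlapped. The change from E16.5 to E18.5 was -2.47 in controls and -1.51 in mutants (SE 0.312), with no overlap of the stages in either genotype.

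Ccl2 and Ccl11 lie in one chemokine cluster on chromosome 11, which RefSeq orders as Ccl2, Ccl7, Ccl11, Ccl12, Ccl8 and Ccl1. Their neighbours had other patterns. Ccl7, a monocyte attractant between both, averaged 2.17 to 2.19 in the 4 groups, and Ccl8 and Ccl1 averaged 2.11 to 2.21, all dim. Ccl12, a further monocyte attractant, averaged 3.58 and 3.49 at E16.5 and 5.39 and 5.35 at E18.5, in controls and mutants in turn. Its E18.5 difference was -0.04 (SE 0.29, adjusted p = 0.924, limma). Among the genes of the cluster, Ccl12 therefore had its higher values at the stage where Ccl2 and Ccl11 had their lower ones in controls.

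Cxcl12, the ligand of Cxcr4, changed least of the 3 chemokines and depended on the probe set. On its brighter probe set (1448823_at) it read 8.04, 8.13, 8.80, 8.25 and 7.99 in E18.5 controls and 8.67, 8.67, 8.45, 8.55 and 8.79 in E18.5 mutants. Control 3 lay above all mutants and the other 4 controls below all mutants. The difference was 0.39 (SE 0.132), and 0.52 without control 3. On the other probe set (1417574_at) the E18.5 controls read 8.48, 8.65, 7.60, 8.47 and 8.69 and the mutants 8.78, 8.41, 8.51, 8.60 and 8.45, a difference of 0.17 (SE 0.16). Control 3 was thus the highest control on one probe set and the lowest on the other, and the mutants lay within the range of the controls on the second but for 1 animal. From E16.5 to E18.5 the control difference was -0.43 on the brighter and 0.04 on the second probe set. All neighbouring groups overlapped on both probe sets, so the order of the levels is not resolved.

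The acute phase genes went the other way. Saa3 was dim at E16.5, at 2.81 to 2.96 in controls and 2.79 to 2.94 in mutants. At E18.5 it read 4.83, 5.42, 5.07, 5.49 and 4.64 in controls and 2.67, 3.61, 3.73, 2.82 and 3.41 in mutants. Every control was above 4 and every mutant dim, and the mutants overlapped with the E16.5 animals. The E18.5 difference was -1.84 (SE 0.181), the change from E16.5 was 2.20 in controls and 0.38 in mutants, and no fold is given because one side is dim throughout. Saa3 passed the filter on low values (above 4 in at least 5 arrays) through the 5 E18.5 controls alone.

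Lcn2, the siderophore-binding protein, was dim in all 10 E16.5 arrays, at 3.15 to 3.20 in controls and 3.01 to 3.21 in mutants. At E18.5 the controls read 9.53, 9.68, 9.26, 9.31 and 9.72 and the mutants 4.51, 4.35, 9.07, 3.69 and 8.29. The controls were close together, and the mutants formed 3 animals near the floor and 2, replicates 3 and 5, within 1 of the lowest control. All mutants were below all controls. The E18.5 difference was -3.52 (SE 0.732), the SD was 0.209 in controls and 2.50 in mutants, and the difference ran from -4.29 without mutant 3 to -2.95 without mutant 4. From E16.5 to E18.5 the difference was 6.32 in controls and 2.85 in mutants (SE 0.732).

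Among the adhesion genes, Icam1 was brighter at E18.5 and Vcam1 was bright throughout. Icam1, the ligand of the leukocyte integrins LFA-1 and Mac-1, read 8.78, 8.86, 8.71, 8.78 and 9.50 in the controls of E16.5 and 8.63, 8.59, 8.90, 8.89 and 9.21 in the mutants. At E18.5 it read 11.12, 11.15, 10.96, 10.98 and 11.23 in controls and 10.67, 10.54, 10.90, 10.21 and 10.94 in mutants. Mutants 3 and 5 lay just under the lowest control, and the other 3 were clearly lower. The E18.5 difference was -0.43 (SE 0.156), that is, 74.0% of the control level. The change from E16.5 was 2.16 in controls, or 4.46-fold, and 1.81 in mutants (SE 0.156), so both genotypes had most of it.

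Vcam1, the ligand of the integrin VLA-4, read 11.17, 11.20, 11.53, 11.02 and 11.20 in E18.5 controls and 11.68, 11.65, 11.68, 11.76 and 11.85 in E18.5 mutants on its brightest probe set (1448162_at). Control 3 was the highest control and lay close under the lowest mutant. The difference was 0.51 (SE 0.0983), or 1.42-fold. The 2 dimmer probe sets gave 0.41 and 0.54, and on each of them control 3 was not below the mutants, at 8.79 on 1415989_at (mutants 8.44 to 8.77) and 6.98 on 1451314_a_at (mutants 6.70 to 7.07). On the brightest probe set Vcam1 averaged 11.3 ± 0.151 in controls and 11.2 ± 0.181 in mutants at E16.5. Its change from E16.5 was -0.08 in controls and 0.54 in mutants (SE 0.0983). On this probe set the E18.5 mutants were above the other 3 groups, which overlapped with their neighbours in the order of the levels. On the 2 dimmer probe sets all neighbouring groups overlapped.

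**Figure D2:**
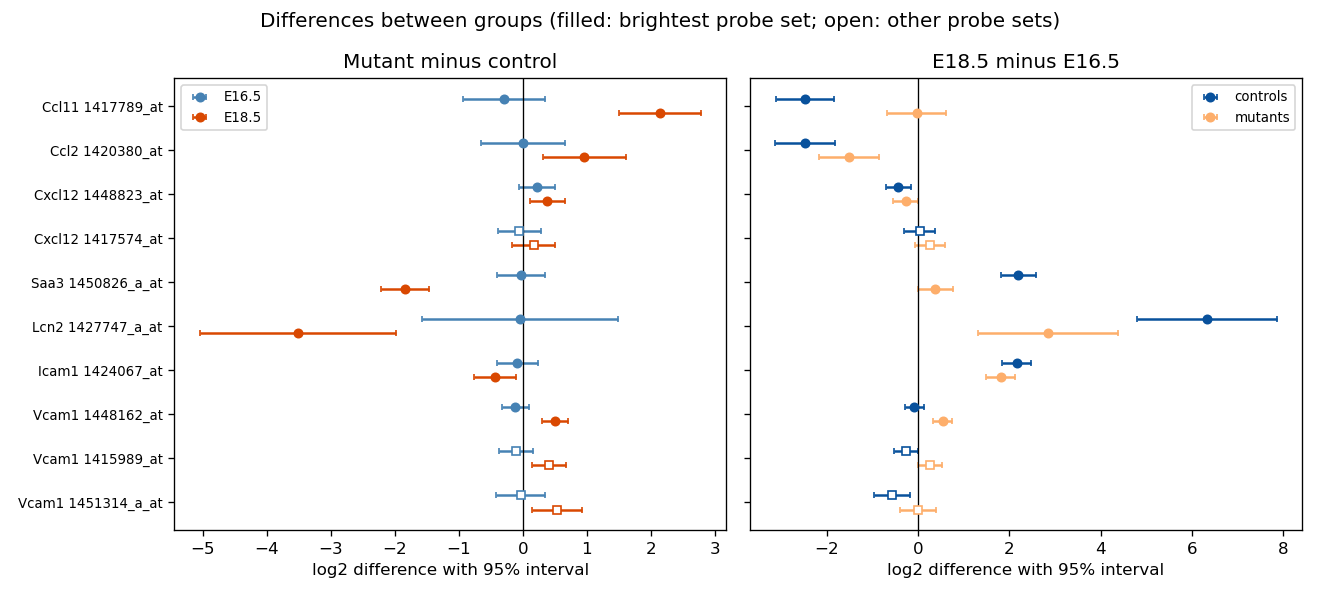
Log2 differences (x axis) with 95% intervals from limma for all 10 probe sets (y axis), mutant minus control on the left and E18.5 minus E16.5 on the right. At E16.5 the intervals of all probe sets include 0. At E18.5 Ccl11 lies at 2.15 and Lcn2 at -3.52, and these E18.5 differences chose the genes.

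Development from E16.5 to E18.5 shared arrays with the comparison that chose the genes and is likewise a description. In controls the stages did not overlap for 5 of 7 genes, 3 higher (Saa3, Lcn2, Icam1) and 2 lower (Ccl11, Ccl2) at E18.5, beside 51.2% of all genes tested. In mutants they did not overlap for 4 of 7, 3 higher and 1 lower, beside 42.4% of all genes. The mutant effect at E18.5 minus that at E16.5 was 2.44 (SE 0.435) for Ccl11, 0.96 (SE 0.442) for Ccl2, 0.16 for Cxcl12, -1.82 (SE 0.256) for Saa3, -3.48 (SE 1.03) for Lcn2, -0.35 (SE 0.22) for Icam1 and 0.62 (SE 0.139) for Vcam1. Each of the 4 largest of these, in either direction, was close to the gene's own E18.5 difference.

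The E16.5 comparison was tested, because its means come from no array of the E18.5 groups. The spread in the fit is shared by all 20 arrays, and Saa3 and Lcn2 passed the filter through E18.5 arrays. None of the 7 genes was called by limma at an adjusted p under 0.05, beside 0.248% of all genes called. None had an unadjusted p under 0.05, beside 356 of all 8068 genes. The differences were 0.00 for Ccl2, 0.22 (SE 0.132) for Cxcl12, -0.03 for Saa3, -0.04 for Lcn2, -0.08 for Icam1 and -0.11 for Vcam1, each with an adjusted p of 1, and their median with Ccl11 was -0.04, beside 0.01 over all genes. Saa3 and Lcn2 were dim in all 10 arrays, so a difference below the floor could not have been measured.

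Ccl11 was the one member whose E16.5 groups did not overlap: all 5 mutants (9.32 to 9.55) were below all 5 controls (9.65 to 9.81), which was so for 1.00% of all genes in either direction. Its difference was -0.30 (SE 0.307, 95% interval -0.94 to 0.35), opposite in sign to that at E18.5, with an adjusted p of 1 in limma. Its SD was 0.0607 in the controls of E16.5 and 0.0857 in the mutants but 1.03 in E18.5 controls, and all groups share one spread in that fit. Fitted on the 10 E16.5 arrays alone, the SE was 0.0624 and the adjusted p 0.159. An exact two-sided permutation test gave p = 0.00794, the smallest that 5 against 5 allows and the value that any gene without overlap has, so it restates the ranges, with no adjustment over the 7 genes. All E16.5 mutants and 1 of 5 E16.5 controls were female, and with sex as a covariate the difference was 0.05 (SE 0.359). That fit has one sex term for all 20 arrays, so it also rests on the E18.5 animals. Among the E18.5 controls the males read 6.82 and 9.03 and the females 6.64, 7.26 and 6.56. The female E16.5 control read 9.72, within the range of the male E16.5 controls and above every E16.5 mutant. The part of sex in the difference was not tested further.

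The arrays of one group also differed in how far they had moved along normal development. The stage position of an array was its place, over all 8068 genes tested, on the line from the mean E16.5 control (0) to the mean E18.5 control (1), each control being left out of its own mean. E18.5 controls lay at 1.09, 1.04, 0.704, 1.02 and 1.09 and E18.5 mutants at 0.519, 0.525, 0.765, 0.452 and 0.769. Control 3 thus lay below mutants 3 and 5, and the other 4 controls above all mutants. Above, control 3 stood apart for Ccl11, Cxcl12 and Vcam1, and mutants 3 and 5 stood apart for Lcn2 and Icam1 only. Control 3 and mutants 3 and 5 read 9.03, 9.16 and 9.52 for Ccl11 and 9.26, 9.07 and 8.29 for Lcn2. They read 10.96, 10.90 and 10.94 for Icam1, which lies within 0.1, and 11.53, 11.68 and 11.85 for Vcam1. Saa3 read 5.07 in control 3 and 3.73 and 3.41, both dim, in mutants 3 and 5. Ccl2 read 3.01 against 3.73 and 3.72, all dim. A single control beside mutants 3 and 5 is a description.

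**Figure D3:**
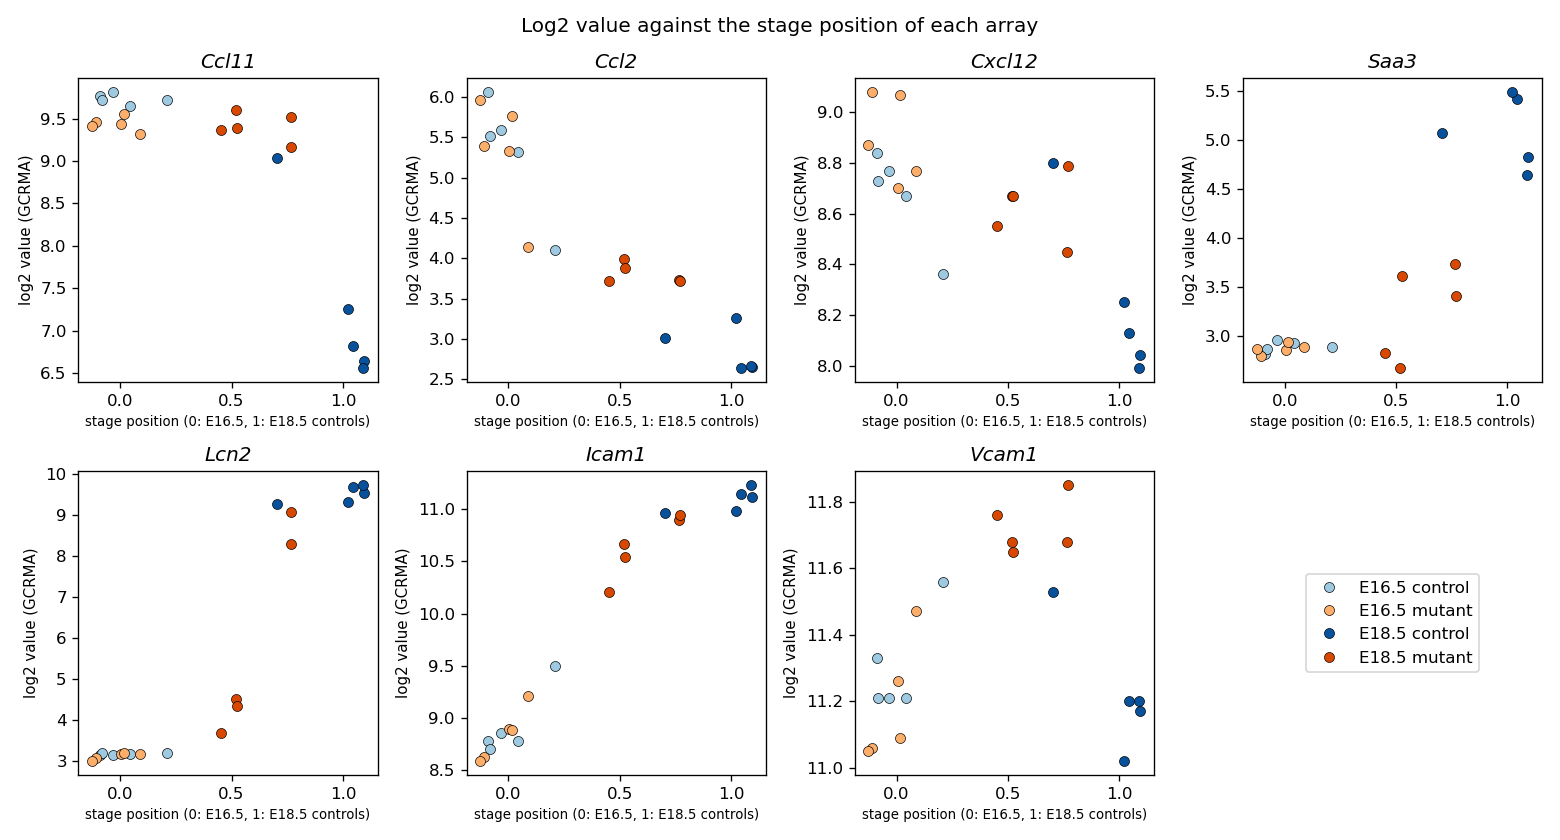
Log2 value of each gene (y axis, different for each gene) against the stage position of the array (x axis, 0 and 1 are the means of the E16.5 and E18.5 controls), 1 point per animal. E18.5 control 3 lies at 0.704, beside mutants 3 and 5 at 0.765 and 0.769, and Lcn2 is above 8 in all 3 and below 5 in the mutants at 0.452 to 0.525.

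With stage position as a covariate the E18.5 differences were 1.20 (SE 0.367) for Ccl11, 0.10 (SE 0.396) for Ccl2 and -1.38 (SE 0.903) for Lcn2. Those of Cxcl12 and Icam1 changed sign, to -0.05 (SE 0.15) and 0.16 (SE 0.147). Both are small beside their errors, so their direction is not resolved with the covariate. Saa3 at -1.61 (SE 0.268) and Vcam1 at 0.54 (SE 0.149) stayed near their values without it. The covariate was computed from the same arrays and largely coincides with genotype at E18.5, so stage and genotype cannot be told apart there. At E16.5 controls lay at -0.0896 to 0.21 and mutants at -0.127 to 0.0874. Replicate 5 was the farthest along in both E16.5 groups. In both it was also the lowest for Ccl2, the highest for Icam1 and, on the brightest probe set, the highest for Vcam1. On the dimmer Vcam1 probe sets it was the highest in neither group, and control 5 was the lowest E16.5 control on 1451314_a_at (6.34).

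Other genes of the same families and of the pathways that act on them were tested at E18.5, where 18.6% of all genes tested were called higher and 15.9% lower in mutants, with a median difference of 0.03. None of the genes on the 9 lists was called at E16.5. Of the other chemokines, 31 of 34 listed were on the array but 9 passed the filter, 3 of which fell, none rose and 6 were not called (median -0.43). Ccl6, a myeloid CC chemokine, fell by 1.47 (SE 0.278, adjusted p = 0.000611, limma), from 7.18 to 5.71. Ppbp and Pf4, the chemokines of platelets, fell by 0.74 (adjusted p = 0.0432) and 0.43 (adjusted p = 0.00954). Cxcl13 had the highest difference on this list, 0.70 (SE 0.402, adjusted p = 0.186), and was named after its value was seen.

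Chemokine receptors were mostly dim: 5 of 21 on the array passed the filter, 2 fell and 3 were not called (median -0.32). Ccrl2, an atypical receptor that binds chemerin, fell by 1.58 (SE 0.252, adjusted p = 0.000143, limma), from 5.24 to 3.66. Its means were dim in every group but the E18.5 controls (2.92 and 2.85 at E16.5), so the size of this difference is limited by the floor. Ccrl2 also passed the filter mainly through these controls, with which the mutants are compared, so its call is not independent of the filter. Cxcr4, the receptor of Cxcl12, fell by 0.38 (SE 0.139, adjusted p = 0.0397), from 8.32 to 7.94. Ackr3, the scavenger of Cxcl12, had a difference of -0.32 (SE 0.148, adjusted p = 0.0992) and was named for that role after its value was seen. Without E18.5 control 1 the receptor count was 1, and without control 3 it was 4. It was also 1 with only the 10 E18.5 arrays, with no filter on low values, with the filter at 6 and with median centring.

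Of 23 other acute phase genes on the array 7 passed the filter, 3 fell, none rose and 4 were not called (median -0.58). Chil1, a chitinase-like lectin, fell by 2.91 (SE 0.648, adjusted p = 0.00215, limma). It averaged 11.9 in E18.5 controls and 8.94 in mutants, and 2.64 and 2.60 at E16.5. Cp (ceruloplasmin, the copper carrier) fell by 1.80 (adjusted p = 0.00635) and Lbp, which hands lipopolysaccharide to Cd14, by 0.58 (adjusted p = 0.0296). Haptoglobin (Hp) was at -0.39 (SE 0.523, adjusted p = 0.595) and the metallothioneins Mt1 and Mt2 at -0.10 and 0.14, named after their values were seen.

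Of 6 tested receptors for acute phase proteins 4 fell and 2 were not called (median -0.91). Fpr2, a formyl peptide receptor that also binds serum amyloid A, fell by 1.66 (SE 0.276, adjusted p = 0.000198, limma), from 7.11 to 5.45. Cd36 fell by 1.12 (adjusted p = 0.0241), Tlr2 by 0.95 (adjusted p = 0.000368) and Scarb1 by 0.36 (adjusted p = 0.00409). Fpr2 and Saa3 were thus both lower in mutants, whereas Cxcr4 was lower and its ligand Cxcl12 overlapped.

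Other adhesion genes were of both kinds, with 7 of 13 tested lower, 2 higher and 4 not called (median -0.28). Icam2, an endothelial relative of Icam1, fell by 0.73 (SE 0.0992, adjusted p = 2.8e-05, limma) and Pecam1, of endothelial junctions, by 0.60 (SE 0.0889, adjusted p = 7.34e-05). Cd44, the hyaluronan receptor, rose by 0.67 (SE 0.0626, adjusted p = 4.12e-07) and Jam3, a junctional adhesion molecule, by 0.67 (SE 0.146, adjusted p = 0.00178). Leukocyte integrins, the partners of Icam1 and Vcam1, passed the filter in 2 of 8 cases. Itgb2, the beta chain of the Icam1 receptors, fell by 1.01 (SE 0.202, adjusted p = 0.00098), and Itgb1 was at 0.01 (SE 0.073, adjusted p = 0.936), a value chosen after it was seen.

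Upstream, the NF-kappaB pathway had 7 of 20 tested genes lower, 1 higher and 12 not called, with a median of -0.14. Traf1, an adaptor of TNF receptors, fell by 1.33 (SE 0.374, adjusted p = 0.0104, limma), from 5.40 to 4.07, close to dim. Nfkbiz fell by 0.72 (adjusted p = 0.00154), Birc3 by 0.62 (adjusted p = 0.0237) and Il1r1, the interleukin-1 receptor, by 0.45 (adjusted p = 0.00434). Traf1, Nfkbiz and Birc3 are themselves known targets of the pathway. Of the IL-6 and STAT3 pathway 4 of 14 fell, none rose and 10 were not called (median -0.23). Cebpd, a C/EBP factor of the acute phase response, fell by 1.72 (SE 0.157, adjusted p = 2.76e-07), from 10.9 to 9.15, and Il6ra, the IL-6 receptor, by 1.71 (SE 0.202, adjusted p = 5.66e-06). Cish fell by 1.07 (adjusted p = 0.000299) and the kinase Jak2 by 0.19 (adjusted p = 0.027).

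Of the mediators that glucocorticoids are known to induce and that dampen inflammation, 6 of 8 tested fell, 1 rose and 1 was not called (median -0.67). Mertk, a receptor for the uptake of dying cells, fell by 2.10 (SE 0.286, adjusted p = 2.97e-05, limma). Tsc22d3 (GILZ) fell by 1.34 (SE 0.184, adjusted p = 3.36e-05), Dusp1, a MAP kinase phosphatase, by 1.02 (SE 0.119, adjusted p = 5.28e-06), and Zfp36, which destabilises cytokine messages, by 0.89 (SE 0.202, adjusted p = 0.00243). The medians of all 9 lists were below the median of all genes. The filter asks for a value above 4 in at least 5 arrays, so a gene can enter a list through the E18.5 controls alone. Such a gene is favoured to be lower in the mutants. Ccrl2 and Traf1 were dim in both E16.5 groups and passed through E18.5 arrays. The counts and medians of the lists are therefore a description.

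**Figure D4:**
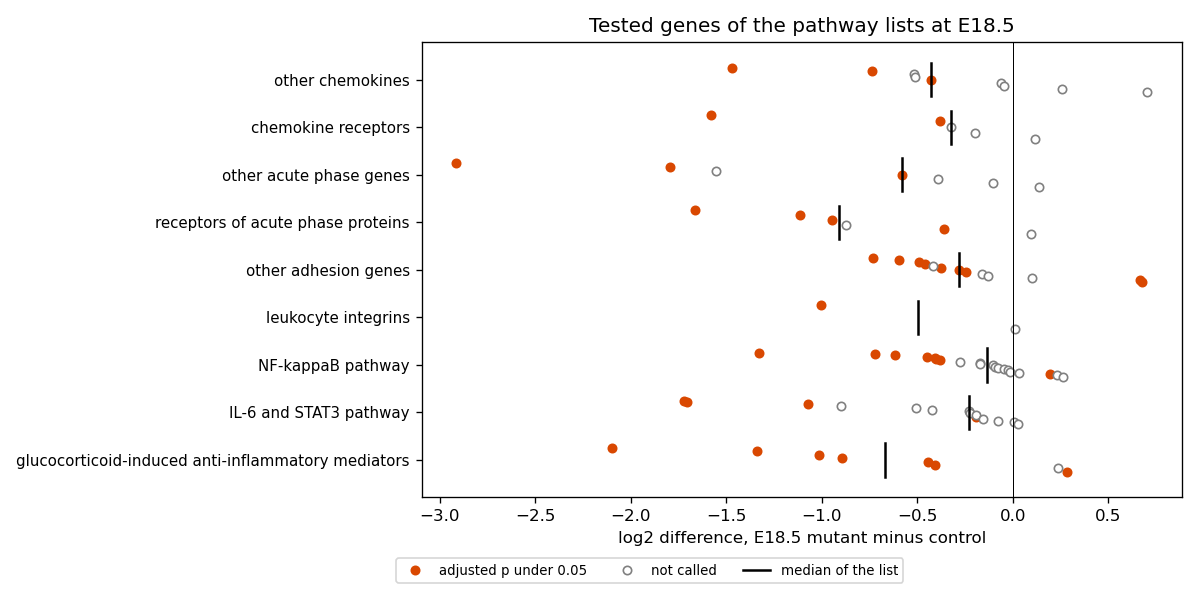
E18.5 mutant minus control log2 difference (x axis) of every tested gene on the 9 pathway lists (y axis), filled where the adjusted p was under 0.05, with the median of each list as a bar. The medians run from -0.14 for the NF-kappaB pathway to -0.91 for the receptors of acute phase proteins, and the 2 filled points at 0.67 are Cd44 and Jam3.

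These counts too depended on stage position. With it as a covariate none was called of the other chemokines, the acute phase genes, their receptors, the leukocyte integrins and the NF-kappaB pathway. Of the other adhesion genes 1 was called higher and 1 lower, and of the IL-6 and STAT3 pathway 2 were called lower. Of the glucocorticoid-induced mediators 3 were called lower and 1 higher. The 1 chemokine receptor called was higher in mutants, whereas the 2 called without the covariate were lower. Leaving out E18.5 control 1, the acute phase count was 2 and that of the other chemokines 2, the lowest that leaving out any E18.5 array gave. Without mutant 5 the IL-6 and STAT3 count was 7. With only the 10 E18.5 arrays the NF-kappaB count was 5 and the IL-6 and STAT3 count 6. With the filter at 6 the count of leukocyte integrins was 0.

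Markers of the cells that these proteins act on or come from were compared alongside. Of 11 neutrophil markers on the array 8 had means below 4 in every group, among them Mpo, Elane and Cxcr2 at 1.91 to 2.13. Ltf, a granule protein also among the 8, averaged 3.27 in E18.5 controls and 2.14 in mutants, and its highest array read 5.57. The E18.5 differences of S100a8 and S100a9 were -0.28 (SE 0.622, adjusted p = 0.759, limma) and -0.37 (SE 0.702, adjusted p = 0.718), with errors larger than the differences. The mean of the list was 3.75 to 4.64 in E18.5 controls and 3.36 to 4.38 in mutants, beside the lower Lcn2 of the mutants. All 10 eosinophil and mast cell markers had means below 4 in every group, among them Epx, Prg2 and Ccr3, the receptor of Ccl11, and so had all 8 T cell markers. The mast cell protease Cpa3 was the one of these 10 with an array above 4, at 4.21.

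Macrophage and monocyte markers, the cells that Ccl2 attracts, had 1 of 9 tested genes lower and 8 not called. Lyz2, which type II cells also make, fell by 1.24 (adjusted p = 0.00586, limma), while Csf1r was at -0.12 (adjusted p = 0.33) and Adgre1 at 0.06 (adjusted p = 0.763). The list averaged 6.56 to 6.76 in E18.5 controls and 6.12 to 6.77 in mutants, and 4 of its 13 genes had means below 4 in every group. Of 12 mesenchymal markers Tcf21 (-0.75, adjusted p = 1.1e-05) and Pdgfra (-0.52, adjusted p = 0.00242) fell and 10 were not called, with list means of 10.6 to 11.3 in controls and 10.5 to 10.8 in mutants.

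The 12 endothelial markers, cells that carry Icam1 and Vcam1, averaged 9.80 to 10.2 in E18.5 controls and 9.53 to 9.77 in mutants, with 7 lower and 5 not called. The mesothelial list, of which Wt1 was dim in every group, averaged 8.54 to 8.69 in controls and 7.34 to 7.996 in mutants, with 4 of 4 tested lower. Club cell markers averaged 10.5 to 11.4 in controls and 9.90 to 10.9 in mutants, with 3 lower, 1 higher and 4 not called. Epithelial markers averaged 11.15 to 11.21 in controls and 10.99 to 11.16 in mutants, with 2 higher, 1 lower and 7 not called. The part of these cell types in the values of the 7 genes was not tested.

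The genes most like each member over the 20 arrays were ranked by Pearson's r. The arrays share stage and genotype, so r also carries those, and it is given as a description. For Ccl11 they were Vcan (0.961), 6330403K07Rik (0.953) and Igdcc4 (0.951). Vcan, a matrix proteoglycan, averaged 10.32 and 10.45 at E16.5, 8.30 in E18.5 controls and 10.39 in E18.5 mutants, so that the E18.5 controls were the lowest group, as for Ccl11. For Lcn2 they were Itga7 (0.995), Ccl6 (0.987) and Vnn3 (0.983), and the same 3 led after group means were subtracted (0.965, 0.958 and 0.949), which rest mostly on the E18.5 mutants, where Lcn2 had an SD of 2.50 and Ccl6 of 0.892. For Icam1, Ier3, Elmo3 and Tapbp each had 0.995, and with group means subtracted Tmbim1 (0.933), Emp2 (0.924) and Selenbp1 (0.917) led.

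Saa3 was most like AW112010 (0.963), Ckmt1 (0.961) and Cdkn1a (0.961), and with group means subtracted 1700028P14Rik (0.751), Slc25a33 (0.744) and Sod2 (0.737), the lowest values of the 7 genes. Ccl2 was most like Nap1l4 (0.972), Dnajc2 (0.971) and Srm (0.970), Cxcl12 like Rcn3 (0.938), Slc35b2 (0.926) and Cfap20 (0.910), and Vcam1 like Rgs5 (0.895), Tnc (0.890) and 9530068E07Rik (0.878). With group means subtracted Dnajc2 (0.884), Cnmd (0.872) and Srm (0.869) led for Ccl2, 6330403K07Rik (0.888), Gtf3a (0.883) and Cct5 (0.882) for Cxcl12, Lamb3 (0.922), Tnc (0.860) and Krt8 (0.837) for Vcam1, and Lgals1 (0.899), Islr (0.895) and Igdcc4 (0.895) for Ccl11. Among the members, Ccl11 and Cxcl12 had r of 0.833 over the 20 arrays and 0.809 with group means subtracted. Saa3 and Lcn2 had 0.899 and 0.494, and Ccl2 and Icam1 -0.940 and -0.715. For Ccl11 the values with group means subtracted rest mostly on the E18.5 controls, where its SD was 1.03 and control 3 read 9.03. That animal was the highest E18.5 control for Cxcl12 on the brighter probe set (8.80) but the lowest on the other (7.60).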

How the data were processed

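Total RNA of whole left lung lobes was measured on Affymetrix Mouse430A_2 arrays, 1 animal per array. The deposited values are log2 intensities that the authors made with GCRMA, per the submitters' processing notes. Its version was not stated there. Nothing was transformed again. GCRMA subtracts a background modelled from probe sequence, so low values crowd near a floor and differences that involve dim values are compressed. Array medians were 5.70 to 5.87, and the number of arrays limits the precision.

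Of 22690 probe sets, 20380 named 1 gene, 691 several, 1555 none, and 64 were controls. The probe set with the highest mean stood for a gene. The 8068 genes above 4 in at least 5 of 20 arrays were fitted with limma 3.58.1 in R 4.3.3, one mean per group and one spread for all groups. Tests were two-sided, adjusted with Benjamini-Hochberg over all genes tested, with a threshold of 0.05. SE is limma's, SD is over 5 animals, and p-values measure the spread between embryos, whose litters are not given. The probe sets that name 1 of the 7 genes were all used.

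The members and lists were chosen with earlier results of these data known, so the E18.5 and developmental differences of the members carry no p-value. The text names all members, up to 4 called genes with the largest E18.5 difference per list, and the 3 genes most like each member by each of 2 measures. Checks on simulated data used the same groups, with 200 of 8068 genes changed by 1 on the log2 scale: 88.5% were recovered at E16.5 and 90.5% at E18.5. There were 9 and 10 false calls. Each simulated gene had the same spread in all groups, so these rates do not cover genes of unequal spread such as Ccl11 and Lcn2. Figures used matplotlib 3.10.9. Promoters came from RefSeq tables, and no genome was used.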

Additional observations from a re-analysis of the deposited data

Results flagged for a closer look

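For each probe set of the 7 genes in each group of 5, the most extreme animal was set against the others, 40 groups in all. In 5 the gap to the nearest animal passed Dixon's critical value of 0.71 of the range, where chance gives about 1 in 20. E18.5 control replicate 3 accounted for 3 of them. It was the highest control for Ccl11 (9.03, ratio 0.719) and for the Vcam1 probe set 1451314_a_at (6.98, ratio 0.711), and the lowest for the Cxcl12 probe set 1417574_at (7.60, ratio 0.800). E16.5 control replicate 5 was the highest for Icam1 (9.50, ratio 0.806). E16.5 mutant replicate 1 was the lowest for the Vcam1 probe set 1451314_a_at (6.56, ratio 0.716).

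The mutant effect differed between E18.5 and E16.5 for 15 of the pathway genes named in the report, by limma's interaction test, beside 678 of all 8068 genes. These genes were named for a large E18.5 difference, which is part of the interaction, so the count of 15 is no measure of how common such differences are. The other pathway genes named were not called in that test, among them Chil1 (adjusted p = 0.0588), Nfkbiz (0.0784) and Traf1 (0.122). The E18.5 effect minus the E16.5 effect was -1.46 for Ccl6 (adjusted p = 0.0283), -1.50 for Ccrl2 (0.0151), -1.32 for Fpr2 (0.0449) and -1.12 for Tlr2 (0.00848). It was -0.52 for Scarb1 (0.0164), -0.78 for Icam2 (0.00248), -0.49 for Pecam1 (0.022), -0.9998 for Itgb2 (0.0385) and 0.75 for Cd44 (3.94e-05), the one positive value. For the signalling genes it was -1.49 for Cebpd (0.000398), -1.49 for Il6ra (0.00396), -1.13 for Cish (0.0134), -1.38 for Mertk (0.043), -1.06 for Tsc22d3 (0.0187) and -0.85 for Dusp1 (0.00516).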

How the results depend on the processing

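Leaving out any one array changed no sign of the members' E18.5 differences. With stage position as a covariate, the E18.5 difference was -0.047 (SE 0.15) for Cxcl12 and 0.16 (SE 0.147) for Icam1. The change from E16.5 was then 0.67 (SE 0.303) in controls and 0.44 (SE 0.209) in mutants for Cxcl12. For Lcn2 in mutants it was -0.66 (SE 1.26), an error larger than the change. Probe set 1417574_at of Cxcl12 gave 0.037 and 0.26 for that change in controls and mutants, and probe set 1451314_a_at of Vcam1 gave -0.0029 in mutants. The cause was not tested. Filtering at 6 left no value for Saa3 and Ccl2. Of all genes, limma called 20 at E16.5, and 9 with only the 10 arrays, 43 with array weights, 8 with sex and 38 with stage position. At E18.5 it called 2784, and 584 with stage position. Development gave 5718 calls in controls (103 with stage position) and 4538 in mutants (547). The interaction gave 678, and 2244 with array weights, 403 with sex and 130 with stage position. Leaving out 1 array gave 13 to 22, 2197 to 3355, 5466 to 5809, 4108 to 4753 and 393 to 1445 calls in that order, the last extremes without E18.5 controls 5 and 3. Median centring moved the median of all genes from -0.01 to -0.15 in control development, the higher share of calls from 49.9% to 38.9%, from 51.0% to 39.8% in mutants, and from 43.1% to 54.4% in the interaction. Ranking by Spearman's rho kept 1 of 3 most similar genes for Lcn2 and Vcam1 and none for the others.

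With the replicate number as a block the counts were 17 at E16.5, 2943 at E18.5, 5791 and 4639 for development and 733 for the interaction. With the block set within each stage, added after seeing the data, they were 12 at E16.5 and 443 for the interaction. Deviations of same-numbered samples correlated at -0.0958 to 0.597 at E16.5, where 4 of 5 were best with their own number, and at -0.429 to 0.208 at E18.5, where 0 of 5 were. Since not every pair was above 0.1, the numbers were not taken to pair the samples at either stage.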
